A study of Mus musculus with 12 samples.

Results

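The genes that license replication origins were followed in mouse embryonic stem cells. The set was chosen by symbol, with earlier results of these data known. It holds Orc1, Cdc6, Cdt1, Gmnn and the helicase genes Mcm2, Mcm3, Mcm4, Mcm5, Mcm6 and Mcm7. All 10 were among the 31641 gene symbols of the count table, and all 10 passed the filter on low counts. The study sequenced RNA from 4 lines, given here in the order Mut-1, Mut-2, WT-1 and WT-2. The genotype label of Mut-1 and Mut-2 reads Tin2 S341X, a stop in the telomere protein TIN2, and WT-1 and WT-2 are wild type. All 4 lines were derived from blastocysts of C57BL/6 mice and were grown with LIF and serum on feeder layers of mouse embryonic fibroblasts, so that RNA of feeder cells can be in every library. Each line gave 3 libraries, which the design text calls technical replicates, and each genotype therefore rests on 2 lines. The sources used here do not give how the mutation was made, how many copies of it a line carries or whether a line is a single clone.

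Licensing prepares DNA for a single round of copying. In late mitosis and G1 the origin recognition complex, of which ORC1 is the largest subunit, recruits CDC6 and CDT1, and together they load the ring of MCM2 to MCM7 onto DNA as an inactive helicase. Geminin, the product of Gmnn, binds CDT1 from S phase to mitosis and so prevents loading again before the next division. Many of these genes are targets of E2F transcription factors, and embryonic stem cells, whose G1 is short, are known to keep many of their products at high levels.

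Promoter sequences are shown because E2F binding is the best known input that these genes share. RefSeq windows on GRCm38.p6, from 250 bases before to 50 bases after each start, were searched on both strands for the words TTTGGCGC, TTTGCCGC, TTTCGCGC and TTTCCCGC. The windows of 8 of the 10 genes were in the table used, and 7 of those 8 genes held a match. Counted by window, 7 of the 9 windows of these genes held a match, against 2.26% of all 32851 windows (744 windows). Mcm4 and Gmnn were not in that table. Mcm2 had no match, and for Mcm7 a match was found at 1 of its 2 annotated starts. In the sequences, written 5′ to 3′ on the strand of the gene, capitals mark the matched words, which may overlap or lie on the opposite strand.
Orc1, chr4:108579416-108579445, plus strand: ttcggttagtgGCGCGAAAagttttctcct
Cdc6, chr11:98908002-98908031, plus strand: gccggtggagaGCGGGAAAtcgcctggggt
Cdt1, chr8:122568035-122568064, plus strand: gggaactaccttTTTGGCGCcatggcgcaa
Mcm3, chr1:20820266-20820295, minus strand: tgGCGGGAAAacttgggaagtTTTGGCGCc
Mcm5, chr8:75109331-75109392, plus strand: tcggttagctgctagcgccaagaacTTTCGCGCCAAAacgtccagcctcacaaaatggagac
Mcm6, chr1:128359779-128359840, minus strand: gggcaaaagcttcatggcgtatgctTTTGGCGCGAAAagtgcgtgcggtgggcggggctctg
Mcm7, chr5:138171849-138171878, minus strand: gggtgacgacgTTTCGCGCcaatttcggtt
In Mcm5 and Mcm6 the capitals hold a word on each strand that overlap, and they begin at position -153 relative to the start of Mcm5 and -110 relative to that of Mcm6. In Mcm3 both words lie after the start, and in Cdt1 the word begins 32 bases after it. Mcm6 held a further match at position -47 and Mcm7 a further one at position -165, which are not printed. A match is a description of the letters and no evidence of binding.

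The libraries held between 14766477 and 17891894 counts. Each licensing gene had between 668 and 10416 counts per library, so that counting error alone was between 1.31% and 3.87% in the library where each gene was lowest. Levels are given in CPM, counts scaled for library size, with 1 value per library in replicate order. Tinf2, the gene of TIN2, had CPM values of 29.8, 25.2 and 20.1 (Mut-1) and 30.1, 27.5 and 19.7 (Mut-2), against 69.2, 64.9 and 57.7 (WT-1) and 64.0, 58.8 and 60.6 (WT-2). Every mutant library was below every wild-type library, although Tinf2 did not pass the test on line totals (adjusted p = 0.0652, edgeR). All 15 pluripotency markers were tested and 0 were called, in a test that called 0 of all 18749 genes. Of these markers 11 were lower and 4 higher in the mutant lines. The log2 fold change, mutant over wild type, was -0.62 for Utf1, -0.31 for Lin28a and 0.32 for Tbx3. Pou5f1, which encodes OCT4, had 241 to 359 CPM in mutant libraries and 241 to 385 CPM in wild-type libraries. The summed share of 30 feeder fibroblast markers was 1.85% of the counts in Mut-1 replicate 1, 1.57% in Mut-2 replicate 1 and 1.71% in Mut-2 replicate 2. In the other 3 mutant libraries it was between 0.750% and 0.963%, and in the wild-type libraries between 0.711% and 1.01%. WT-1 replicates 1 and 2 were the most alike libraries of any line, with a chi-square of 1.62 per degree of freedom. Every other pair of libraries from the same line gave 10.9 to 38.4. Replicates 1 and 2 of WT-1 were both kept, so that this pair weighs on the WT-1 total. Whether they are independent libraries was not tested.

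All 10 licensing genes were lower in the mutant lines, by small amounts, and none passed the test. The log2 fold changes of the line totals, mutant over wild type, lay between -0.47 for Cdc6 and -0.11 for Orc1, with a median of -0.25, beside a median of -0.00 over all 18749 genes tested. Of all genes tested, 50.2% had a fold change below 0. In edgeR's test of 2 lines against 2, the number of genes called in either direction at an adjusted p under 0.05 was 0 (0.0%), and so was the number of licensing genes. At an unadjusted p under 0.05, 6 of the 10 were lower, against 3.88% of all genes. A limma-voom fit of the 12 libraries with the line as a random block also called 0 of the 10, where 0.267% of all genes were called lower. Its unadjusted p was under 0.05 for 5 of the 10, against 7.15% of all genes lower at that level. That fit estimated a correlation of -0.002 between libraries of a line, so that it in effect treated the technical replicates as separate samples. DESeq2 on line totals called Cdc6 alone (log2 fold change -0.48, adjusted p = 0.0432), and it called 0.464% of the 15078 genes with an adjusted p lower. In RNA of whole cultures, fewer cells of a type and less RNA per cell cannot be told apart.

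**Figure D1:**
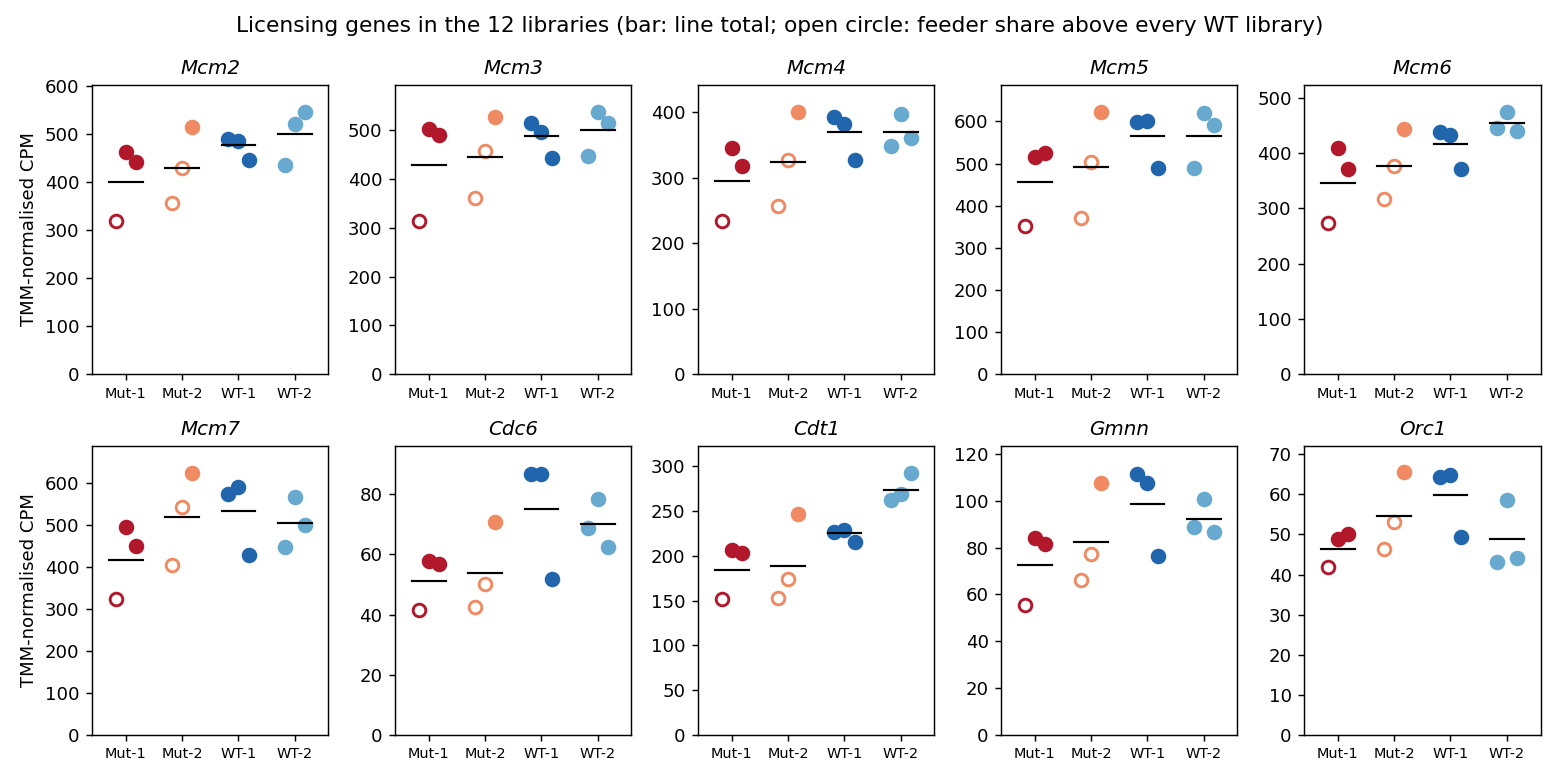
TMM-normalised CPM of each licensing gene in the 3 libraries of Mut-1, Mut-2, WT-1 and WT-2 (points), with the line total (bar); open circles mark the 3 mutant libraries whose feeder marker share was above that of every wild-type library. Mut-1 replicate 1 is the lowest mutant library in all 10 panels, Mut-2 replicate 3 is the highest, and the genotypes overlap in each panel.

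Orc1, on chromosome 4, is the subunit of the origin recognition complex whose level changes most over the cell cycle. It had CPM values of 41.9, 48.8 and 50.1 (Mut-1) and 46.5, 53.2 and 65.6 (Mut-2), against 64.4, 64.9 and 49.3 (WT-1) and 43.2, 58.6 and 44.2 (WT-2). The highest library was a mutant one and the second lowest a wild-type one, so the genotypes overlapped through most of their range. Line totals averaged 50.5 ± 5.85 CPM in the mutant lines and 54.3 ± 7.76 CPM in the wild-type lines (SD, n = 2 each), a log2 fold change of -0.11 (SE 0.14, adjusted p = 0.797, edgeR). This was the smallest difference of the 10 genes. An RNA on the opposite strand, Gm12743, overlaps Orc1, and the sources used here do not give the strand setting of the counting.

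Cdc6, on chromosome 11, encodes the ATPase that joins the origin recognition complex to make it competent for loading. Its CPM values were 41.6, 57.7 and 56.9 (Mut-1) and 42.5, 50.3 and 70.6 (Mut-2), against 86.6, 86.8 and 51.8 (WT-1) and 68.9, 78.4 and 62.6 (WT-2). WT-1 replicate 3 and WT-2 replicates 1 and 3 lay within the mutant range, and 3 of the 6 mutant libraries were below all wild-type ones. The line totals averaged 52.5 ± 1.71 CPM in the mutant lines and 72.7 ± 3.52 CPM in the wild-type lines (SD, n = 2 each). The log2 fold change of -0.47 (SE 0.11) was the largest of the 10, with an adjusted p of 0.188 in edgeR.

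Cdt1, on chromosome 8, encodes the factor that brings the MCM ring to the origin. It had CPM values of 152, 206 and 203 (Mut-1) and 153, 174 and 246 (Mut-2), against 227, 229 and 215 (WT-1) and 262, 269 and 292 (WT-2). Of the 6 mutant libraries, 5 were below every wild-type library, and Mut-2 replicate 3 was above the 3 libraries of WT-1. Its line totals averaged 186 ± 3.07 CPM in the mutant lines and 249 ± 34.4 CPM in the wild-type lines (SD, n = 2 each), a log2 fold change of -0.42 (SE 0.12, adjusted p = 0.246, edgeR). Relative to the mean of the 12 libraries and to the other autosomes, the median log2 level of the 597 genes measured on chromosome 8 was -0.07 in Mut-1 and -0.07 in Mut-2, against -0.01 in WT-1 and 0.16 in WT-2. Over the other chromosomes that carry licensing genes these medians stayed between -0.02 and 0.04. The part of chromosome 8 as a whole in the difference of Cdt1 was not tested. Mcm5, the other licensing gene on chromosome 8, had 566 CPM in both wild-type lines. The predicted gene Gm20388 overlaps Cdt1 on the same strand.

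Gmnn, on chromosome 13, encodes the inhibitor of CDT1. In mutant libraries it ranged from 55.7 to 108 CPM with a median of 79.4 CPM, and in wild-type libraries from 76.4 to 112 CPM with a median of 94.7 CPM. Only 2 mutant libraries were below all wild-type libraries. Line totals averaged 77.6 ± 7.10 CPM in the mutant lines and 95.5 ± 4.61 CPM in the wild-type lines (SD, n = 2 each), a log2 fold change of -0.30 (SE 0.11, adjusted p = 0.327, edgeR).

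Both inhibitor and loader were lower in the mutant lines, and the ratio of their counts, which does not depend on library scaling, did not separate the genotypes. There were 0.394 Gmnn counts per Cdt1 count in Mut-1 and 0.438 in Mut-2, against 0.439 in WT-1 and 0.337 in WT-2. The log2 ratio averaged -1.27 ± 0.11 in the mutant lines and -1.38 ± 0.27 in the wild-type lines (SD, n = 2 each). The difference was 0.11 (exact two-sided permutation test, p = 1.0), and 0.333 is the smallest p that 2 lines against 2 allow. The wild-type lines stood further apart than the genotypes, and without WT-2 the difference was -0.08. Among libraries the ratio was lowest in WT-2 replicate 3, at 0.297, and highest in WT-1 replicate 1, at 0.492.

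**Figure D2:**
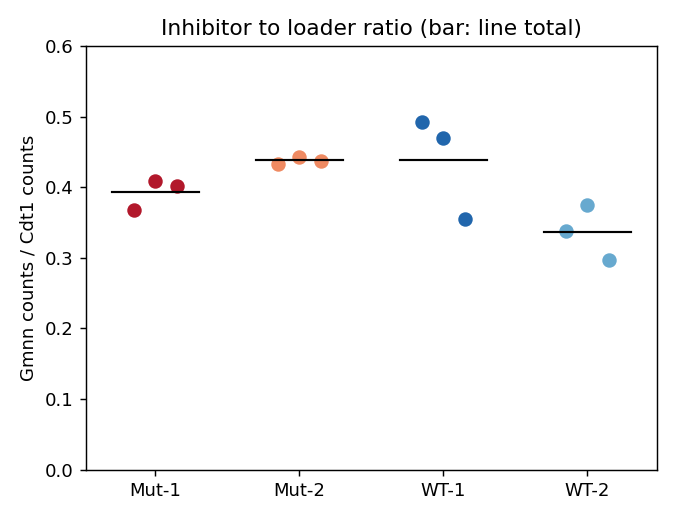
Gmnn counts divided by Cdt1 counts in each library (points) and line total (bar) of Mut-1, Mut-2, WT-1 and WT-2. The 3 libraries of Mut-2 lie close together, between 0.433 and 0.443, and those of WT-1 span 0.355 to 0.492.

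The 6 helicase genes, Mcm2 to Mcm7, encode the subunits of the ring that unwinds DNA at the replication fork. Their log2 fold changes lay between -0.27 and -0.15, and 3 of the 6 had an unadjusted p under 0.05, beside 3.88% of all genes that were lower at that level. Mcm6 averaged 361 ± 21.9 CPM in the mutant lines and 435 ± 26.4 CPM in the wild-type lines (SD, n = 2 each), a log2 fold change of -0.27 (SE 0.11, adjusted p = 0.344, edgeR). Its libraries ran from 274 to 444 CPM, median 374 CPM, in mutant lines and from 371 to 475 CPM, median 439 CPM, in wild-type lines, and 2 mutant libraries were below all wild-type ones. Mcm4 averaged 310 ± 21.6 CPM in the mutant lines and 370 ± 0.247 CPM in the wild-type lines, a log2 fold change of -0.26 (SE 0.10, adjusted p = 0.353). Mcm5 averaged 475 ± 24.7 CPM in the mutant lines and 566 ± 0.137 CPM in the wild-type lines, a log2 fold change of -0.25 (SE 0.10, adjusted p = 0.343). The near-identical totals of the wild-type lines hide spread among their libraries, which ran from 327 to 397 CPM for Mcm4 and from 489 to 619 CPM for Mcm5.

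Mcm2, the subunit that also carries histones, averaged 415 ± 20.9 CPM in the mutant lines and 488 ± 16.4 CPM in the wild-type lines (SD, n = 2 each), a log2 fold change of -0.23 (SE 0.10, adjusted p = 0.386, edgeR). Mcm3 averaged 437 ± 11.7 CPM in the mutant lines and 494 ± 8.47 CPM in the wild-type lines, a log2 fold change of -0.18 (SE 0.10, adjusted p = 0.484). Mcm7 averaged 466 ± 72.7 CPM in the mutant lines and 519 ± 19.3 CPM in the wild-type lines, a log2 fold change of -0.15 (SE 0.13, adjusted p = 0.648). Mcm7 was the subunit that differed most between the mutant lines, with 415 CPM in Mut-1 and 518 CPM in Mut-2. Ap4m1 and Cops6 on the opposite strand and the microRNA genes Mir25, Mir93 and Mir106b within it overlap Mcm7, so that its counts may hold reads of these genes.

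No licensing gene separated the genotypes completely, while 0.732% of 16533 genes had every mutant library below every wild-type one. The spread followed the library only in part. The highest wild-type library varied with the gene, being WT-2 replicate 3 for Cdt1 and WT-1 replicate 2 for Orc1. In all 10 genes the lowest mutant library was Mut-1 replicate 1 and the highest was Mut-2 replicate 3, and WT-1 replicate 3 was the lowest wild-type library in 7 of the 10. The mean of the 6 helicase genes, each relative to its own mean over 12 libraries, was 0.687, 1.03 and 0.977 in Mut-1 and 0.782, 0.993 and 1.18 in Mut-2, against 1.14, 1.13 and 0.947 in WT-1 and 0.992, 1.18 and 1.11 in WT-2. Only Mut-1 replicate 1 and Mut-2 replicate 1 stood below every wild-type library.

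These are also libraries of high feeder share. Over the 12 libraries, the 2 lowest helicase levels came with feeder shares of 1.85% and 1.57%, but Mut-2 replicate 2, with a share of 1.71%, had a helicase level of 0.993. All 30 feeder markers were higher in the mutant lines (median log2 fold change 0.58), where 50.2% of all genes tested were lower. Of the 30, 29 had an unadjusted p under 0.05 and 0 had an adjusted p under 0.05 in edgeR. The share of all genes higher at an unadjusted p under 0.05 is not given here. No feeder marker was at 0 in all libraries. Leaving out the 3 libraries of high feeder share left 2 libraries of Mut-1, 1 of Mut-2 and every wild-type library. The Mut-2 library left was replicate 3, the highest mutant library of every licensing gene. In this refit 5 licensing genes were lower and 5 higher in the mutant lines. The median log2 fold change was then -0.00, with a range from -0.18 (SE 0.15) for Cdc6 to 0.09 (SE 0.18) for Orc1, and 49.3% of all genes had a fold change below 0. The number of licensing genes lower at an unadjusted p under 0.05 was 0, against 2.22% of all genes. With the feeder share as a covariate in limma-voom the median was -0.05, and the smallest adjusted p was 0.626, that of Cdt1. Leaving out a single library gave a median of -0.15 without Mut-1 replicate 1 and -0.16 without Mut-2 replicate 1. Without Mut-2 replicate 2 it was -0.25, and without Mut-2 replicate 3 it was -0.34. Beyond these refits the part of feeder RNA in the difference was not tested.

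**Figure D3:**
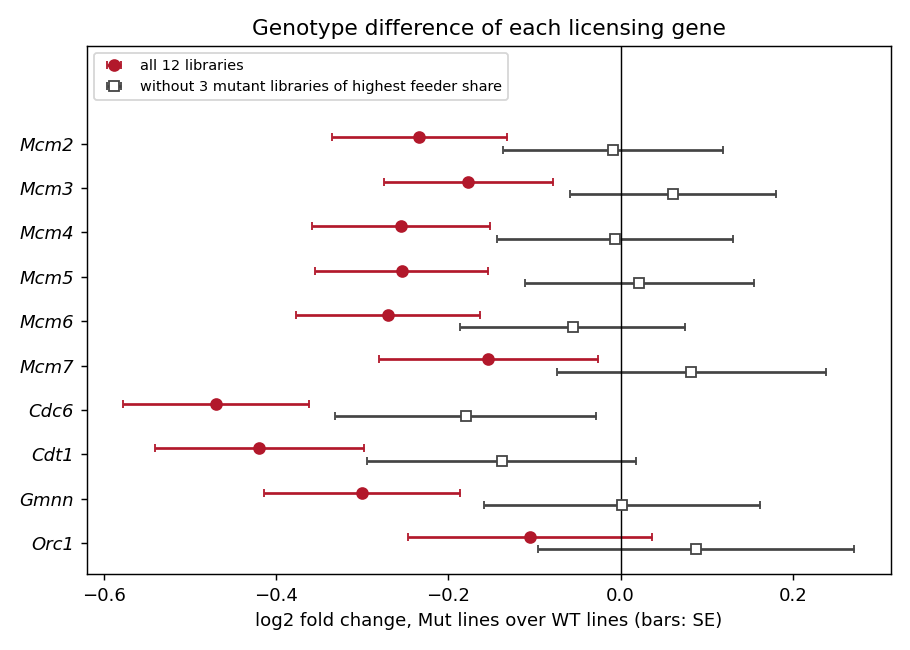
Log2 fold change of each licensing gene, mutant over wild-type lines, from edgeR on line totals with all 12 libraries (filled circles) and without the 3 mutant libraries of highest feeder share (open squares); bars are standard errors. All filled circles lie below 0, and the open squares lie between -0.18 and 0.09.

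**Figure D4:**
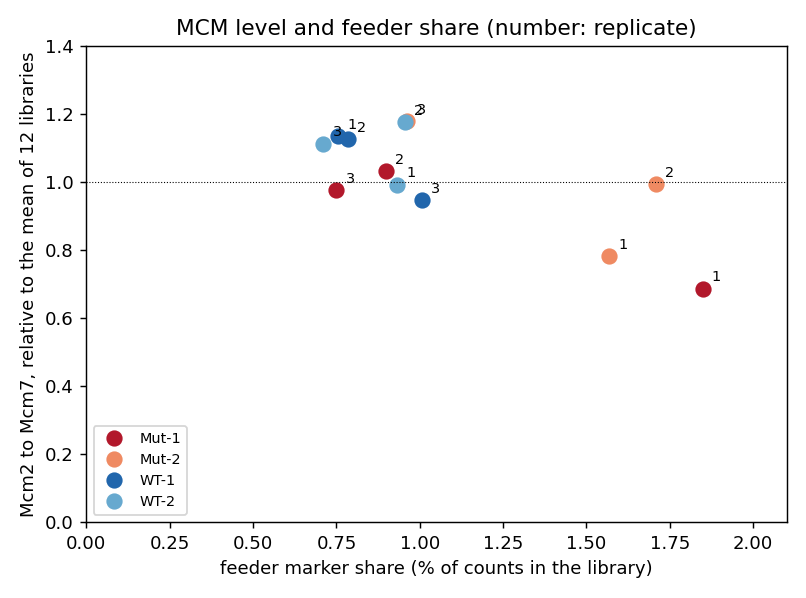
Mean level of Mcm2 to Mcm7 relative to the mean of 12 libraries, against the share of counts from 30 feeder markers in percent, with 1 point per library and its replicate number. The 3 mutant libraries on the right have shares of 1.57% to 1.85% and levels of 0.687 to 0.993.

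Among the remaining mutant libraries the levels of Cdc6 were within the wild-type range, and those of Cdt1 were partly below it. Cdc6 had 56.9 to 70.6 CPM in these 3 mutant libraries and 51.8 to 86.8 CPM in the wild-type libraries. Cdt1 had 203 to 246 CPM there and 215 to 292 CPM in the wild-type libraries. Its levels in Mut-1 replicates 2 and 3 (206 and 203 CPM) were below every wild-type library. The log2 fold change of Cdt1 without the high-feeder libraries was -0.14 (SE 0.16).

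The genotypes were also compared within pairs of lines that share a line number, which is the only basis of the pairing used here. In Mut-1 against WT-1 all 10 licensing genes were lower, with a median log2 fold change of -0.29 and a range from -0.53 (SE 0.22) for Cdc6 to -0.15 (SE 0.18) for Mcm3. None passed edgeR's test of the 12 libraries (smallest adjusted p = 0.422), in which 0.327% of 16533 genes were called in either direction and 0.0302% were called lower. In Mut-2 against WT-2, 8 of the 10 were lower, with a median of -0.18. Without the high-feeder libraries 2 of the 10 were lower in that pair, Mcm6 (-0.04) and Cdt1 (-0.17), which leaves 1 library of Mut-2, while 9 of the 10 stayed lower in Mut-1 against WT-1. With all 12 libraries, Cdt1 led in Mut-2 against WT-2 with -0.52 (SE 0.17, unadjusted p = 0.00825, adjusted p = 0.157, edgeR), Mcm7 was at 0.05 (SE 0.19) and Orc1 at 0.18 (SE 0.17). In that pair with all libraries, 0.925% of genes were called in either direction and 0.194% lower, and 0 of these were licensing genes. With the replicate number as a block, the genes called in Mut-2 against WT-2 went up to 328, against 153 without it, and still 0 licensing genes were called. These p-values measure only the spread between libraries of a line, which may be technical.

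The difference between the line pairs was tested in the same fit. It was called for 0.0726% of genes and for 0 licensing genes, and the largest was that of Orc1, at 0.52 (SE 0.24, unadjusted p = 0.0452, adjusted p = 0.607, edgeR). This value depends on pairing the lines by number. Orc1 had log2 fold changes of 0.23 in Mut-2 against Mut-1 and -0.29 in WT-2 against WT-1. Lines of the same genotype also differed. In WT-2 against WT-1 the licensing genes had a median log2 fold change of 0.01 and ranged from -0.29 for Orc1 to 0.29 for Cdt1. The other 8 lay between -0.10 for Cdc6 and 0.13 for Mcm6. Of the 10 genes, Orc1 alone differed more between the wild-type lines than between the genotypes. In Mut-2 against Mut-1 all 10 were higher, with a median of 0.11 and a highest value of 0.31 for Mcm7. None was called in either comparison, where 0.26% of all genes tested were called between the mutant lines, 0.212% of all genes tested being called lower in Mut-2, and 0.0181% between the wild-type lines.

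Per length of the principal annotated transcript, 5 of the 6 helicase genes were the most abundant of the set in both genotypes, and Cdc6 and Orc1 the least. Levels averaged 157 CPM per kb in mutant lines and 175 CPM per kb in wild-type lines for Mcm7, the highest, and 16.8 CPM per kb in mutant lines and 18.02 CPM per kb in wild-type lines for Orc1, the lowest. Mcm5 had 140 CPM per kb in mutant lines and 167 in wild-type lines, and Mcm3 had 144 in mutant lines and 163 in wild-type lines. Mcm6 had 124 CPM per kb in mutant lines and 150 in wild-type lines, and Mcm2 had 123 in mutant lines and 145 in wild-type lines. Within each genotype, Mcm6 and Mcm2 did not differ from each other beyond the spread of their libraries. Mcm4 had 86.3 CPM per kb in mutant lines and 103 in wild-type lines. Cdt1 had 85.2 in mutant lines and 114 in wild-type lines. Mcm4 and Cdt1 could not be ordered in either genotype, as their libraries overlapped. Mcm4 ran from 65.2 to 111.7 and Cdt1 from 69.3 to 112.5 in mutant libraries. In wild-type libraries Mcm4 ran from 91.2 to 110.6 and Cdt1 from 98.3 to 133.4. Gmnn had 68.8 CPM per kb in mutant lines and 84.8 in wild-type lines, and Cdc6 had 20.5 in mutant lines and 28.4 in wild-type lines. Neighbours among the helicase genes from Mcm7 to Mcm2 overlapped in their ranges over libraries. The order of the 10 genes also depends on the length used. With all annotated exons, Mcm5 was highest, at a mean of 131.1 CPM per kb over all libraries, against 111.8 for Mcm7. Cdc6 was then lowest, below Orc1 at 15.11 CPM per kb, and Cdt1 (69.74) was above Mcm2 (65.21).

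The proportions among the 6 subunits overlapped between the genotypes. Relative to the mean of the 6 per length, Mcm4 varied least among libraries and ranged from 0.653 to 0.686 in mutant libraries and from 0.652 to 0.709 in wild-type libraries. Mcm7 ranged from 1.12 to 1.32 in mutant libraries and from 1.09 to 1.27 in wild-type libraries. Mcm6 ranged from 0.929 to 1.004 in mutant libraries and from 0.951 to 1.12 in wild-type libraries. The order of the subunits rests on the transcript taken for the length, since with all annotated exons the mean share of Mcm4 was 0.930, against 0.677 with the principal transcript, and that of Mcm2 was 0.639, against 0.960.

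Over the 12 libraries, which share lines and normalisation, the helicase genes moved together. The most alike pair of licensing genes was Mcm4 and Mcm5 (Pearson r = 0.972), and the least alike was Cdt1 and Orc1 (r = 0.29). Gmnn followed the mean of the helicase genes with r = 0.943. Cdc6 (r = 0.864), Cdt1 (r = 0.830) and Orc1 (r = 0.693) followed it less closely. Among 9841 genes of at least 10 CPM, the 5 outside the set with the most similar pattern were Cct5, a subunit of the chaperonin that folds actin and tubulin (r = 0.993), Tubb2b, a beta-tubulin (r = 0.983), Pcna, the sliding clamp of the replicative polymerases (r = 0.982), Set, a histone chaperone (r = 0.979), and Anapc5, a subunit of the anaphase-promoting complex (r = 0.977). Cct5 had 440 to 625 CPM in mutant libraries and 534 to 607 CPM in wild-type libraries. Pcna had 262 to 558 CPM in mutant libraries and 378 to 522 CPM in wild-type libraries.

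Genes that act beside the licensing set had smaller median differences, and 0 were called in any list. List medians of the log2 fold change ran from -0.22 for E2F and G1-S control to 0.03 for the geminin relatives. The median of the licensing genes was -0.25. Of 49 tested genes in 6 lists of partners and regulators, 42 were lower in the mutant lines, 11 of them with an unadjusted p under 0.05, and 1 was higher at that level. Of all genes tested, 50.2% were lower and 3.88% were lower at an unadjusted p under 0.05. The lists were chosen with earlier results of these data known, so that these counts are a description only. Without the libraries of high feeder share, 30 of the 49 were lower. All 6 partners of ORC1 were lower (median log2 fold change -0.18), with 0 at an unadjusted p under 0.05. Orc6, which lies on chromosome 8, averaged 115 ± 4.38 CPM in mutant lines and 138 ± 16.9 CPM in wild-type lines, and Orc2 averaged 71.5 ± 2.82 CPM in mutant lines and 83.8 ± 5.31 CPM in wild-type lines (SD, n = 2 each). Among 4 relatives and handlers of the MCM ring, 3 were lower and Mcmbp, which binds MCM subunits and aids their assembly, had the lowest p (log2 fold change -0.31, SE 0.10, adjusted p = 0.279, edgeR). Of Gmnc and Mcidas, the relatives of geminin, 1 passed the filter on low counts, and Gmnc averaged 0.336 CPM in mutant lines and 0.325 CPM in wild-type lines.

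Of 13 genes that turn the loaded ring into an active helicase, 12 were lower (median log2 fold change -0.19) and 3 of these had an unadjusted p under 0.05. Gins4 and Gins2, subunits of the GINS complex of the active helicase, had log2 fold changes of -0.43 (SE 0.13, adjusted p = 0.248, edgeR) and -0.36 (SE 0.12, adjusted p = 0.282), and both lie on chromosome 8. Cdc7, the kinase that phosphorylates the loaded ring, averaged 47.9 ± 3.90 CPM in mutant lines and 59.7 ± 2.34 CPM in wild-type lines (SD, n = 2 each). All 9 genes of licence turnover, which take part in or regulate the breakdown of CDT1 or geminin, were lower (median -0.18). Cul4b, a scaffold of the ligase that marks CDT1, had a log2 fold change of -0.32 (SE 0.10), and Fbxo5, an inhibitor of the anaphase-promoting complex, also had -0.32 (SE 0.12).

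Of 16 genes of E2F and G1-S control, 12 were lower (median log2 fold change -0.22). Cdc25a, a phosphatase that activates CDK2, had -0.36 (SE 0.11), and Rbl1, which encodes the pocket protein p107, had -0.39 (SE 0.13). E2f4, an E2F that acts mainly as a repressor, had -0.32 (SE 0.10), and it lies on chromosome 8. Rb1, the retinoblastoma gene, was 1 of 4 that were higher and the only one of them with an unadjusted p under 0.05, with 25.5 ± 5.12 CPM in mutant lines and 17.5 ± 3.02 CPM in wild-type lines (SD, n = 2 each), a log2 fold change of 0.55 (SE 0.19, unadjusted p = 0.0203, adjusted p = 0.302, edgeR). Of 15 genes of mitosis, which is not a step of licensing, 14 were lower (median -0.21), 4 with an unadjusted p under 0.05. Among them was Aurkb, a kinase of chromosome segregation (log2 fold change -0.41, SE 0.13, adjusted p = 0.274, edgeR). Without the libraries of high feeder share the medians were -0.09 for the ORC partners, -0.21 for the MCM relatives, -0.02 for helicase activation, 0.05 for licence turnover, -0.04 for E2F and G1-S control and -0.11 for mitosis. Pluripotency genes had a median of -0.06 with all libraries, 11 of 15 being lower, and 0.08 without those of high feeder share.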

How the data were processed

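Total RNA of cultures grown on feeders was sequenced. The authors deposited whole-number counts of reads per gene for 12 libraries, with no normalization in the table. Per the submitters' processing notes, HISAT2 2.1.0, HTSeq 0.6.0, Bowtie2 2.2.3 and bcl2fastq were among the tools, with GRCm38 as the build. The sources used here give neither their roles, the annotation nor a strand setting, so reads of overlapping genes cannot be told apart.

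Because the libraries of a line are called technical replicates, their counts were summed per line (line totals of at least 47284654 counts), and Mut-1 and Mut-2 were compared with WT-1 and WT-2 with edgeR 4.0.16 (quasi-likelihood, R 4.3.3), TMM normalization, filterByExpr and Benjamini-Hochberg adjustment over all genes at 0.05. Line pairs were compared in 1 edgeR fit of 12 libraries with 4 line groups. CPM are TMM-normalised, and fold changes are mutant over wild type. Alternatives were other scaling (RLE), no filter, DESeq2 1.42.0, limma 3.58.1 (voom), and leaving out lines or libraries.

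Gene positions come from GENCODE release 21 for mouse (GRCm38). The members and lists were chosen with earlier results of these data known. The genes named are all members, Tinf2, genes from among the 4 of smallest unadjusted p in each list, Pou5f1 as a marker of stem cells, and the 5 genes most like the mean of Mcm2 to Mcm7. Correlations used log2(CPM + 0.5). Same-numbered libraries of Mut-2 and WT-2 deviated together (r = 0.695, 0.39 and 0.114 over 11412 genes), and so did those of WT-1 and WT-2 and those of Mut-1 and Mut-2. So did those of Mut-1 and WT-2 (r = 0.404, 0.391 and 0.288). Those of Mut-1 and WT-1 did not all do so (r = -0.13, 0.217 and 0.104), and those of Mut-2 and WT-1 deviated in opposite directions (r = -0.105, -0.26 and -0.288). Same-numbered libraries thus did not deviate together in all pairs of the 4 lines.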

Additional observations from a re-analysis of the deposited data

How the results depend on the processing

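All values here are given as count of genes called or log2 fold change. For the genotype, 0 genes were called; with RLE scaling it was 1, without a filter 77, with DESeq2 361, with limma-voom 226, with limma-voom and the replicate block 103, and with the feeder covariate 33. It was 158 without line Mut-1, 92 without Mut-2, 53 without WT-1, and 0 to 96 without single libraries. DESeq2 called 1 licensing gene, Cdc6; the other settings called 0. The median over licensing genes was -0.0498 with the feeder covariate, -0.33 without line Mut-2, and -0.34 to -0.15 without single libraries. Without the libraries of high feeder share it was -0.002 (edgeR), or -0.0504 and 15 genes called with limma-voom, a setting chosen after seeing the data.

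Directions turned as follows. With the feeder covariate Mcm3 was at 0.0465, Mcm7 at 0.0243 and Orc1 at 0.0252. Without the high-feeder libraries Mcm3 was at 0.0607, Mcm5 at 0.0218, Mcm7 at 0.0822, Gmnn at 0.002 and Orc1 at 0.0876, and with limma-voom Mcm3 at 0.0435, Mcm7 at 0.0109 and Orc1 at 0.0255. Orc1 was at 0.0059 without line Mut-1 and 0.0579 without WT-1. In Mut-1 against WT-1 without those libraries Mcm3 was at 0.0317. In Mut-2 against WT-2 Mcm2 was then at 0.0283, Mcm3 at 0.0674, Mcm4 at 0.11, Mcm5 at 0.12, Cdc6 at 0.0025 and Gmnn at 0.22. Without single libraries Mcm3 ranged from -0.28 to 0.0296 in Mut-1 against WT-1, and in Mut-2 against WT-2 Gmnn ranged from -0.36 to 0.0058 and Mcm7 from -0.0923 to 0.21. The log2 Gmnn to Cdt1 ratio turned to -0.08 without WT-2 and ranged from 0.045 to 0.156 without single libraries. Of 240 alternative values of single genes for the genotype, 226 kept their direction and side of the threshold.

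Genes called without a filter, with DESeq2 and with the replicate block were 543, 196 and 100 in Mut-1 against WT-1 (54 as reported; 16 to 447 without single libraries), 966, 657 and 328 in Mut-2 against WT-2 (153; 9 to 234), 201, 62 and 6 in WT-2 against WT-1 (3; 0 to 42), and 270, 126 and 68 in Mut-2 against Mut-1 (43; 3 to 70). Without the high-feeder libraries it was 1 in Mut-2 against WT-2 and 1 in Mut-2 against Mut-1. Without a filter Cdt1 was called in Mut-2 against WT-2 (adjusted p = 0.0327, edgeR). The block called no licensing gene in any pair, though same-numbered libraries of Mut-1 and WT-1 share only a number. The cause of these changes was not tested.

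With 2 lines per genotype, the standard errors of the licensing genes were 0.098 to 0.142 (log2), which limits what differences of this size can show. Counting error was at most 3.87% per library.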

Other observations

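Outside the licensing set, the markers of other cell types differed as follows. Of 9 tested primitive endoderm markers, 8 were higher in the mutant lines (median log2 fold change 0.55, and 0.18 without the libraries of high feeder share), 4 of them with an unadjusted p under 0.05 and 0 called by edgeR. Gata4, a transcription factor of that lineage, averaged 14.1 ± 2.34 CPM in mutant lines and 8.50 ± 1.53 CPM in wild-type lines (SD, n = 2 each). Their summed share was between 0.0364% and 0.0653% of counts in mutant libraries and between 0.0392% and 0.0491% in wild-type libraries. Of 8 blood markers, 5 were tested and all 5 were higher in the mutant lines (median 0.25), 2 of them with an unadjusted p under 0.05 and 0 called by edgeR, and the globin genes Hba-a1 and Hbb-bs were not analysed here. As for the feeder markers, the share of all genes higher at an unadjusted p under 0.05 is not given here. The part of these cell types in the licensing genes' differences was not tested.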
